A study of Mus musculus with 26 samples.

Results

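Cytochrome P450 (P450) genes were examined in RNA-seq counts from the epididymis and testis of WT and ArKI mice. The members were taken by symbol, as every gene of the count tables named *Cyp* followed by a family number, a subfamily letter and a gene number. Of the 101 symbols that match, 5 are marked as pseudogenes and 3 others were not analysed here. This left 93 of the 23337 genes. ArKI mice carry a germline knock-in allele, and WT mice do not. Both were males on a C57Bl/6N; 129 hybrid background, 3 months old, and received no treatment that the labels name. The initial segment (IS) and the caput, the first stretches of the epididymis, were taken from the same 5 WT and 5 ArKI mice, and the testis from 3 WT and 3 ArKI mice. Gene counts do not show the allele, so the genotype of a library rests on its label. The labels do not say which IS and caput libraries come from 1 mouse, so tests that span both segments treat libraries that share animals as independent.

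P450 enzymes are haem proteins that insert oxygen into lipids, steroids, vitamins and foreign compounds, with electrons delivered by P450 oxidoreductase in the endoplasmic reticulum or by ferredoxin in mitochondria. The number in the symbol is the family and the letter the subfamily. Members of families 1, 2 and 3 act mainly on foreign compounds, with *Cyp2j* and *Cyp2c* enzymes also making epoxides of arachidonic acid, and family 4 enzymes hydroxylate fatty acids at the chain end. Other families make or clear bile acids, oxysterols, vitamin D, retinoic acid and steroid hormones. Many are most abundant in the liver, and several of the liver genes are under hormonal control, including by androgens. In the epididymis, which concentrates and matures sperm, and in the testis, steroids and lipids are substrates at hand.

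An IS library held 5829074 to 9770625 counts, a caput library 4125768 to 11913469 and a testis library 14077013 to 21376604. Per the labels the epididymal libraries belong to sequencing batch 2 and the testis libraries to batch 1, so tissue and batch cannot be told apart. Levels are CPM, counts scaled to the same library size, after TMM scaling within each tissue, unless a scaling over the 13 WT samples is named. The labels were checked against marker genes. Summed over 4 markers of the IS epithelium, the lowest IS library had 15774 CPM and the highest library of another tissue 2207 CPM. The 4 markers chosen for the caput epithelium overlapped between the segments, with sums of 47556 to 70055 CPM in the IS and 46007 to 76731 CPM in the caput, and so do not tell them apart. Sperm and spermatid markers had at least 17029 CPM in the testis. The caput library of ArKI replicate 2 stood apart, with the lowest depth and, among caput libraries, the highest summed levels of fibroblast markers (1879 CPM against 792 to 1083 CPM in the other ArKI caput libraries) and of smooth muscle and leukocyte markers. These are bulk samples, so that fewer cells of a type and less RNA per cell cannot be told apart.

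Most P450 genes were silent or nearly so. Only 39 of the 93 members had enough counts to be tested in any tissue (21 in the IS, 22 in the caput and 30 in the testis), and 14 were tested in all 3. Of the 54 members tested in no tissue, 52 had at most 9 counts in every library, and 42 belonged to families 1 to 3. The 9 *Cyp3a* genes, whose products are the main drug-metabolizing enzymes of the liver, reached at most 6 counts in a library, and 5 of them had 0 counts in all 26. Of the 15 *Cyp2c* genes 4 were tested, in the testis only, and 6 were at 0 counts throughout. By contrast all 8 *Cyp4f* genes were tested in some tissue. *Cyp11b1* and *Cyp11b2*, the adrenal enzymes that complete corticosterone and aldosterone, did not exceed 2 counts.

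Read counts can be shared between near-identical genes. Of the 93 symbols 91 matched GENCODE vM21, the mouse annotation on mm10. For each, the share of 50-base stretches of its transcripts that also occur in transcripts of another gene was counted, 50 bases being the read length. The authors counted uniquely mapped reads, so reads from stretches that occur at different places in the genome should be missing from both genes. The share also holds stretches where genes overlap at the same place, on either strand, and reads from those can map uniquely. The share was 98.6% for *Cyp3a41a* and 48.9% for *Cyp4a12a*, but 0.148% for *Cyp2j13* and 0.422% for *Cyp2j6*. It was 23.8% for *Cyp21a1*, whose partner is the pseudogene *Cyp21a2-ps*.

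In the WT tissues the P450 complement differed between epididymis and testis. Levels of different genes were compared as CPM per kb of exon, scaled over the 13 WT samples. In the WT caput *Cyp4f15* led with 23.8 ± 0.520 CPM per kb (SD, n = 5), followed by *Cyp1b1* at 13.1 ± 1.55, *Cyp27a1* at 13 ± 1.69, *Cyp2j6* at 11.2 ± 0.519 and *Cyp4f13* at 7.95 ± 0.528. *Cyp4f15* and *Cyp4f13* belong to the fatty acid hydroxylases, *Cyp1b1* metabolizes estrogens and retinoids, *Cyp27a1* is the mitochondrial sterol 27-hydroxylase, and *Cyp2j6* is an epoxygenase. The ranges of *Cyp1b1* (10.7 to 14.8 CPM per kb), *Cyp27a1* (10.1 to 14.4) and *Cyp2j6* (10.8 to 12) overlapped, so their order is within the spread between samples.

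In the WT IS the highest members were *Cyp27a1* with 8.13 ± 1.30 CPM per kb (SD, n = 5), *Cyp1b1* with 7.81 ± 0.777, *Cyp4f13* with 6.10 ± 0.606, *Cyp20a1* with 5.50 ± 0.624 and *Cyp4f16* with 4.95 ± 0.587. *Cyp20a1* has no established substrate. In range *Cyp27a1* overlapped with *Cyp1b1*, and *Cyp4f13*, *Cyp20a1* and *Cyp4f16* each overlapped with the next, while the lowest *Cyp1b1* sample (6.91 CPM per kb) was above the highest *Cyp4f13* sample (6.55). In the WT testis *Cyp2d26* had 17.9 ± 0.820 CPM per kb (SD, n = 3), *Cyp4f39* 14.2 ± 1.92, *Cyp27a1* 5.44 ± 0.677, *Cyp46a1* 4.26 ± 0.429 and *Cyp1b1* 3.48 ± 0.113. *Cyp4f39* hydroxylates very long fatty acids for the skin barrier, and *Cyp46a1* is the cholesterol 24-hydroxylase known from neurons. Of neighbours in this order, the ranges of *Cyp2d26* and *Cyp4f39* did not overlap (lowest 17.0 against highest 16.4 CPM per kb), nor did those of *Cyp27a1*, *Cyp46a1* and *Cyp1b1*. *Cyp2d26* was at or below 2 counts in every WT epididymal library. Added up on the scale of the 13 WT samples, the 93 members had 208 ± 5.35 CPM (SD, n = 5) in the WT IS, 351 ± 13.6 (n = 5) in the WT caput and 206 ± 1.58 (n = 3) in the WT testis. The IS and testis ranges overlapped, and the caput was above both.

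**Figure D1:**
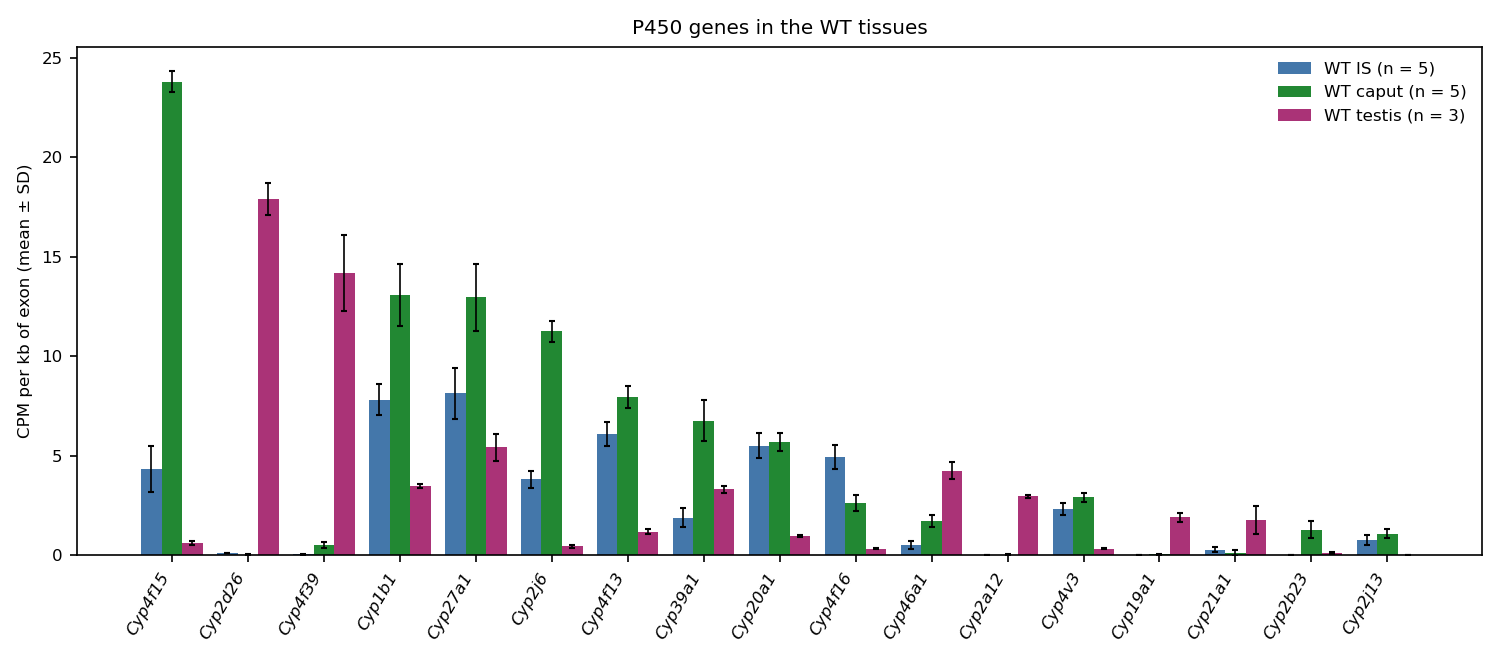
Levels of 17 P450 genes in WT tissues, as CPM per kb of exon (vertical axis, linear from 0), mean with SD as error bars, scaled over the 13 WT samples. *Cyp4f15* is tallest in the caput with 23.8, and *Cyp2d26* and *Cyp4f39* are tallest in the testis with 17.9 and 14.2 while their epididymal bars are near 0.

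Along the WT duct, 6 of the 21 members tested differed more than 2-fold between IS and caput at an adjusted p below 0.01, and all 6 were lower in the IS. Of all genes 20.8% passed these thresholds, made up of 11.1% lower and 9.71% higher in the IS, each as a share of all genes tested. The log2 difference, IS minus caput, was -2.43 for *Cyp4f15* (SE 0.11, adjusted p = 3.2e-12 by edgeR), -1.83 for *Cyp39a1* (SE 0.15, adjusted p = 6.1e-09), -1.82 for *Cyp46a1* (SE 0.23, adjusted p = 5.1e-07), -1.77 for *Cyp1a1* (SE 0.33, adjusted p = 9.3e-05) and -1.55 for *Cyp2j6* (SE 0.07, adjusted p = 2.3e-13). *Cyp39a1* hydroxylates the 24-hydroxycholesterol that *Cyp46a1* makes, so transcripts for consecutive enzymes of one oxysterol route were both higher in the caput. Whether the same cells hold both was not tested. *Cyp2b23* had 16 to 36 counts in each WT caput library and 0 in each WT IS library. It passed the filter on low counts through the caput only, so the count of 6 holds 1 member that had to differ. *Cyp4f16* and *Cyp2s1* were higher in the IS, by 0.92 and 0.88 on the log2 scale, under 2-fold (adjusted p = 4.9e-07 and 0.00095). By the adjusted p alone 12 members passed, 10 lower and 2 higher in the IS, against 62.2% of all genes tested (30.8% lower and 31.3% higher). The *Cyp2s1* exons overlap 260 bases of an antisense gene, *Gm26707*, and whether the counting used the strand is not given in the sources used here.

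Between the WT testis and both epididymal segments, 22 of 30 members tested differed more than 2-fold in the same direction at an adjusted p below 0.01, against 61.2% of all genes (34.9% higher and 26.3% lower in the testis). By the adjusted p alone 23 members passed, 8 higher and 15 lower, against 80.2% of all genes (44.2% higher and 36.1% lower). Of the 30 members tested 18 reached the filter in some of the tissues only, so these counts are not read against the background. *Cyp19a1*, *Cyp21a1*, *Cyp2a12*, *Cyp2c44*, *Cyp2d26*, *Cyp2u1*, *Cyp46a1* and *Cyp4f39* were higher in the testis. The *Cyp2u1* exons overlap 548 bases of an antisense gene, *4930534D22Rik*. *Cyp19a1* is aromatase, which turns androgens into estrogens, and *Cyp21a1* is the steroid 21-hydroxylase of the adrenal. The other 14 were lower there, among them *Cyp2j6*, with a log2 difference of -3.05 from the IS (SE 0.15, adjusted p = 1.2e-15) and -4.60 from the caput (SE 0.13, adjusted p = 2.2e-20). *Cyp2j13* had 0 counts in all testis libraries, where 3 counts would be at most 0.216 CPM. These contrasts carry the difference in sequencing batch.

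In the ArKI IS, *Cyp4a12a* had counts in every library while WT libraries were near 0, *Cyp2j6* and *Cyp39a1* rose and *Cyp27a1* fell. The question of this comparison is how the ArKI genotype alters transcript levels in the segment nearest the testis. *Cyp4a12a*, a fatty acid hydroxylase that in mouse liver and kidney is known as androgen-dependent and makes the vasoconstrictor 20-HETE, was the only one of 21 members past an adjusted p of 0.01 with more than 2-fold, where 4.04% of all genes passed (2.72% rose and 1.32% fell). With no fold limit 4 members passed, or 19%, and 18.8% of all genes (9.35% rose and 9.48% fell). *Cyp4a12a* passed the filter on low counts through the ArKI libraries only, so it had to differ once tested, and its call is not read against the background. The other calls were 3 of 20 members. The median log2 fold change of the 21 was 0.09, and that of all genes tested 0.00. Scaled within the IS, the summed level of all members was 226 ± 14.6 CPM (SD, n = 5) in ArKI and 226 ± 5.69 CPM (n = 5) in WT.

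*Cyp4a12a* had 4, 2, 0, 2 and 0 counts in the WT IS libraries and 16, 19, 13, 12 and 12 in the ArKI ones. These are 0.485, 0.229, 0, 0.284 and 0 CPM against 2.12, 2.68, 1.88, 2.05 and 1.41 CPM. All 5 ArKI libraries lay above all WT libraries, with 72 counts against 8, a ratio of 10.4 (95% exact interval 5.02 to 25.1, counting error only). The fitted log2 difference of 3.28 (SE 0.48) is given as an estimate without its p, because the filter chose the gene by its ArKI libraries.

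Reads of *Cyp4a12a* can be told from those of its neighbour *Cyp4a12b* only where the genes differ. The genes lie 78.8 kb apart on chromosome 4 of mm10, at chr4:115299046-115332815 and chr4:115411624-115439034, on the plus strand. Their coding sequences of 1524 bases differ at 23 positions (98.5% identity). The exon 6 stretch with the most differences, 50 bases from base 634 of the coding sequence, is shown for both genes, from GENCODE transcripts, to show how few bases separate them. It lies at chr4:115326632-115326681 in the first and at chr4:115432885-115432934 in the second, and capitals mark the 4 bases that differ.
Cyp4a12a: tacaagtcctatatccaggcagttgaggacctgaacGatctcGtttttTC
Cyp4a12b: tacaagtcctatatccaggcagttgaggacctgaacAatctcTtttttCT
*Cyp4a12b* was counted once in all 26 libraries together.

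*Cyp2j6* had 15.5, 16.2, 13.6, 12.8 and 16.4 CPM in the WT IS and 27.5, 28.5, 20.9, 21.7 and 23.3 CPM in the ArKI IS. The groups did not overlap, and the log2 fold change was 0.71 (SE 0.10, adjusted p = 3.8e-05). *Cyp39a1* rose from 4.23 to 8.34 CPM over the WT libraries to 9.77 to 12 CPM over the ArKI ones, again without overlap, by 0.79 (SE 0.16, adjusted p = 0.00078). *Cyp27a1*, which starts the acidic route of bile acid synthesis, had 19.8, 15.8, 23.7, 19.6 and 17.0 CPM in WT and 13.8, 15.5, 12.6, 11.8 and 10.4 CPM in ArKI IS. All ArKI values were below all WT values, and it fell by 0.58 on the log2 scale (SE 0.12, adjusted p = 0.0014). Short of the threshold were *Cyp46a1* (0.82, SE 0.28, adjusted p = 0.031), *Cyp2j13* (0.71, SE 0.22, adjusted p = 0.018), *Cyp2s1* (0.62, SE 0.22, adjusted p = 0.037), *Cyp7b1* (-0.69, SE 0.23, adjusted p = 0.029) and *Cyp1b1* (-0.70, SE 0.17, adjusted p = 0.013), although for *Cyp1b1* all ArKI libraries were below all WT libraries. The other 12 members tested had adjusted p-values of 0.18 or more.

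Cell markers moved in the same IS libraries. All 4 smooth muscle markers fell, and their sum was 501 to 567 CPM in WT and 211 to 385 CPM in ArKI. Of the 6 leukocyte and macrophage markers 2 fell, *Emr1* and *Csf1r*, the receptor that marks macrophages, the latter by 0.54 (SE 0.10, adjusted p = 0.00067), and the 6 summed to 148 to 211 CPM in WT and 135 to 191 CPM in ArKI. Of the 4 basal cell markers 2 fell, with sums of 339 to 388 CPM in WT and 267 to 295 CPM in ArKI, and of the sperm markers the 2 tested fell more than 2-fold (sums of 11.1 to 73 CPM and 2.17 to 5.64 CPM). Of the fibroblast markers *Col1a1* and *Col1a2* rose and *Pdgfra* fell, with sums of 1053 to 1175 CPM in WT and 1134 to 1425 CPM in ArKI. Of the 4 IS epithelium markers 2 fell, with sums of 18209 to 20591 CPM in WT and 15774 to 18441 CPM in ArKI. Of the 4 caput epithelium markers *Lcn8* and, more than 2-fold, *Crisp1* fell, with sums of 56844 to 64577 CPM in WT and 47556 to 70055 CPM in ArKI. Of the 4 efferent duct markers none passed the threshold, but their sum was 154 to 180 CPM in WT and 149 to 384 CPM in ArKI, and 4 of the 5 ArKI libraries lay above every WT library. Of the 3 Sertoli cell markers tested *Sox9* rose, with sums of 969 to 1644 CPM in WT and 984 to 2642 CPM in ArKI. The part of these cells in the P450 changes was not tested. Fat cell markers stayed at or below 2.87 CPM in sum.

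**Figure D2:**
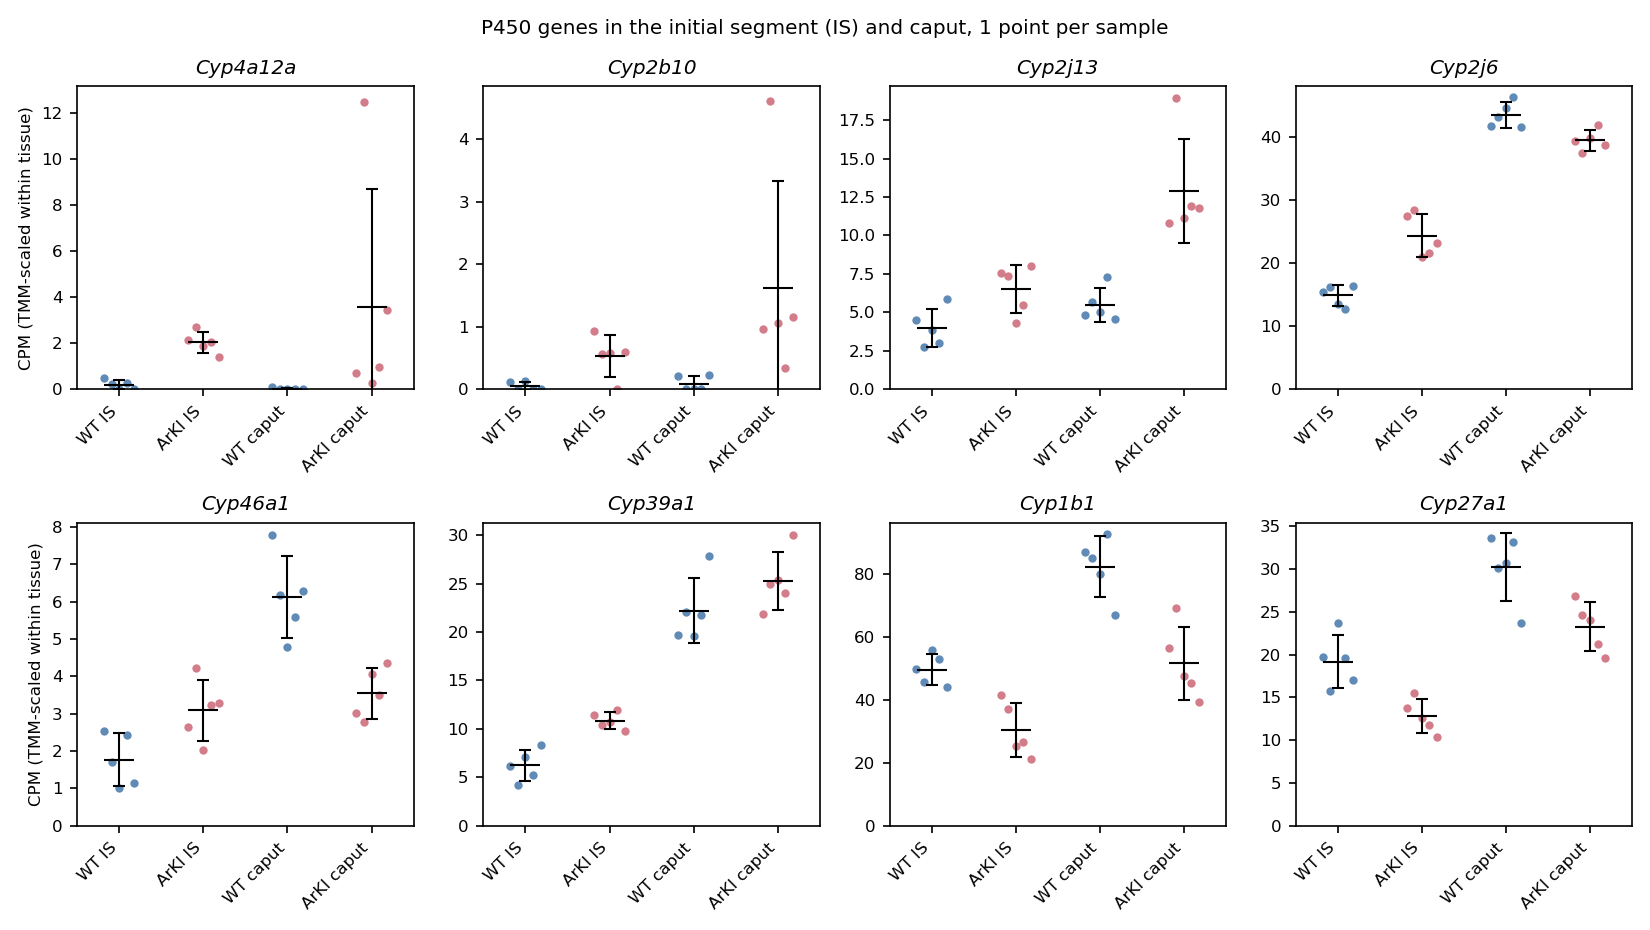
CPM of 8 P450 genes in each IS and caput library (vertical axis, linear from 0, TMM-scaled within tissue), 1 point per sample, with the mean and SD in black. *Cyp2j6* rises in the ArKI IS, *Cyp46a1* falls in the ArKI caput, and 1 ArKI caput library stands above the rest for *Cyp4a12a* (12.5 CPM), *Cyp2b10* (4.61 CPM) and *Cyp2j13* (18.9 CPM).

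In the ArKI caput, *Cyp2j13*, *Cyp4f39* and *Cyp2b23* rose and *Cyp1b1*, *Cyp27a1* and *Cyp46a1* fell. Past 2-fold were *Cyp2j13* and *Cyp4f39*, 2 of 22 members tested, against 4.98% of all genes (2.43% rose and 2.55% fell). The count was 1 without WT replicate 3, 4 or 5 or ArKI replicate 3 or 4. By the adjusted p alone 6 members passed, or 27.3%, against 18% of all genes (8.62% rose and 9.36% fell). The median log2 fold change was 0.02 over the members and 0.00 over all genes. The summed level was 341 ± 10.6 CPM (SD, n = 5) in ArKI and 377 ± 14.6 in WT.

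*Cyp2j13*, of the same epoxygenase subfamily as *Cyp2j6*, had 4.81, 5.64, 5.02, 7.30 and 4.55 CPM in the WT caput and 10.8, 18.9, 11.1, 11.9 and 11.8 CPM in the ArKI caput. The groups were apart, with a log2 fold change of 1.20 (SE 0.17, adjusted p = 3.6e-05), and it held without any 1 caput library (adjusted p up to 0.00022). *Cyp4f39* had 1.33, 2.39, 1.52, 1.10 and 1.40 CPM in WT and 2.53, 2.08, 4.41, 3.77 and 2.96 CPM in ArKI caput. The ArKI library with 2.08 CPM lay below the highest WT library, and the log2 fold change of 1.07 (SE 0.26, adjusted p = 0.0045) lost the threshold without WT replicate 1, 3, 4 or 5 or ArKI replicate 3 or 4 (adjusted p up to 0.016). It was also lost with the replicate number as a block (adjusted p = 0.013). In the testis *Cyp4f39* had 32.8 ± 4.06 CPM in WT and 33.7 ± 3.46 CPM in ArKI (SD, n = 3, adjusted p = 0.91). *Cyp2b23* had 1.95 to 3.91 CPM in WT and 4.84 to 6.51 CPM in ArKI caput, without overlap (log2 fold change 0.90, SE 0.20, adjusted p = 0.0026). Without ArKI replicate 4 its adjusted p was 0.010.

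*Cyp46a1* had 7.78, 6.18, 4.79, 5.60 and 6.30 CPM in the WT caput and 3.01, 2.77, 4.06, 3.51 and 4.36 CPM in the ArKI caput. Every ArKI library was below every WT library, and the gene fell by 0.75 on the log2 scale (SE 0.17, adjusted p = 0.0030, or 0.012 without WT replicate 1). *Cyp1b1* had 86.8, 84.8, 79.8, 92.6 and 66.8 CPM in WT and 56.4, 69.0, 47.6, 45.4 and 39.3 CPM in ArKI caput, which overlapped by 1 library on each side (-0.70, SE 0.14, adjusted p = 0.0048). *Cyp27a1* had 23.7 to 33.7 CPM in WT and 19.6 to 26.8 CPM in ArKI, also with overlap (-0.39, SE 0.10, adjusted p = 0.0078). Both were close to the threshold. Without WT replicate 1, 2, 3 or 4 or ArKI replicate 3 or 4 the adjusted p of *Cyp1b1* was above 0.01 (up to 0.016), and the same holds for *Cyp27a1*, for ArKI replicate 5 as well (up to 0.027). *Cyp4f40* was the highest by estimate, at 1.22 (SE 0.36, adjusted p = 0.017), with 0.350 to 1.43 CPM in WT and 0.963 to 2.80 CPM in ArKI.

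In the same ArKI caput libraries the 8 sperm markers fell by more than 2-fold, their sum being 241 to 378 CPM in WT and 38.8 to 108 CPM in ArKI. Efferent duct markers summed to 46.6 to 60 CPM in WT and 84.0 to 95.5 CPM in ArKI, with *Aqp1* and *Esr1* past the threshold. Smooth muscle markers did not pass it in either direction (716 to 882 CPM in WT and 581 to 1276 CPM in ArKI), and none of the 5 leukocyte, 4 fibroblast, 4 basal cell and 4 caput epithelium markers tested did. Of the 4 IS epithelium markers *Ros1* rose, with sums of 496 to 2207 CPM in WT and 566 to 1321 CPM in ArKI. Of the 3 Sertoli cell markers tested *Sox9* rose, with sums of 25289 to 30611 CPM in WT and 27783 to 32333 CPM in ArKI. Summed fibroblast markers were nevertheless higher in every ArKI library (792 to 1879 CPM) than in every WT library (678 to 752 CPM), and summed leukocyte markers were 82.4 to 106 CPM in WT and 104 to 170 CPM in ArKI. Their part in the P450 changes was not tested.

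Some P450 genes near 0 in the WT caput had clear counts in ArKI but were left out by the filter. *Cyp4a12a* had 1, 0, 0, 0 and 0 counts in the WT caput and 6, 54, 3, 11 and 42 counts in the ArKI caput. The groups were apart although the ArKI libraries ranged from 0.265 to 12.5 CPM. Over the groups 116 counts against 1 gave a ratio of 108 (95% exact interval 18.9 to 4285, counting error only), and without ArKI replicate 2 the counts were 62 against 1. With every gene of at least 1 count tested, its adjusted p was 0.042, and without ArKI replicate 2, the library that stood apart, it was 0.0060. Leaving out each of the 10 caput libraries in turn gave 0.0060 to 0.22. In the testis *Cyp4a12a* had 0 counts in all 6 libraries.

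*Cyp2b10*, the classic drug-inducible P450 of mouse liver, had 2, 0, 0, 0 and 2 counts in the WT caput and 8, 20, 12, 4 and 14 counts in the ArKI caput. All ArKI libraries were higher, and 58 against 4 counts gave a ratio of 13.4 (95% exact interval 4.98 to 51.0, counting error only). With every gene of at least 1 count tested the adjusted p was 0.0080, and it ranged from 0.00045, without ArKI replicate 2, to 0.025 when each of the 10 caput libraries was left out in turn. The threshold of 0.01 was lost in 8 of these 10 refits, those without any of the WT replicates or without ArKI replicate 1, 3 or 5. In the IS the counts were 1, 0, 1, 0 and 0 in WT and 7, 4, 4, 0 and 5 in ArKI, with 1 ArKI library at 0. The ratio was 11.6 (95% exact interval 2.82 to 102, counting error only). With 3 counts in each WT library the ratio of *Cyp2b10* would be 1.46 in the IS and 4.79 in the caput. *Cyp1a1*, an inducible enzyme of aromatic hydrocarbons, was left out in the IS with 14, 14, 8, 1 and 9 counts in WT and 8, 4, 0, 3 and 4 in ArKI (adjusted p = 0.17 with every gene of at least 1 count tested). *Cyp2u1*, a fatty acid hydroxylase, had at most 13 counts in an IS library and 11 in a caput library (adjusted p = 0.30 and 0.14). *Cyp26a1*, which clears retinoic acid, had 20, 1, 11, 1 and 5 counts in the WT caput and 2, 0, 4, 4 and 9 in the ArKI caput (adjusted p = 0.32). *Cyp2e1* in the caput and *Cyp4b1* in the testis, with at most 47 and 13 counts, had adjusted p-values of 0.52 and 0.80. *Cyp2c66*, the only other member tested in no tissue that exceeded 9 counts, reached 11 counts in the WT testis and 9 in the ArKI testis.

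**Figure D3:**
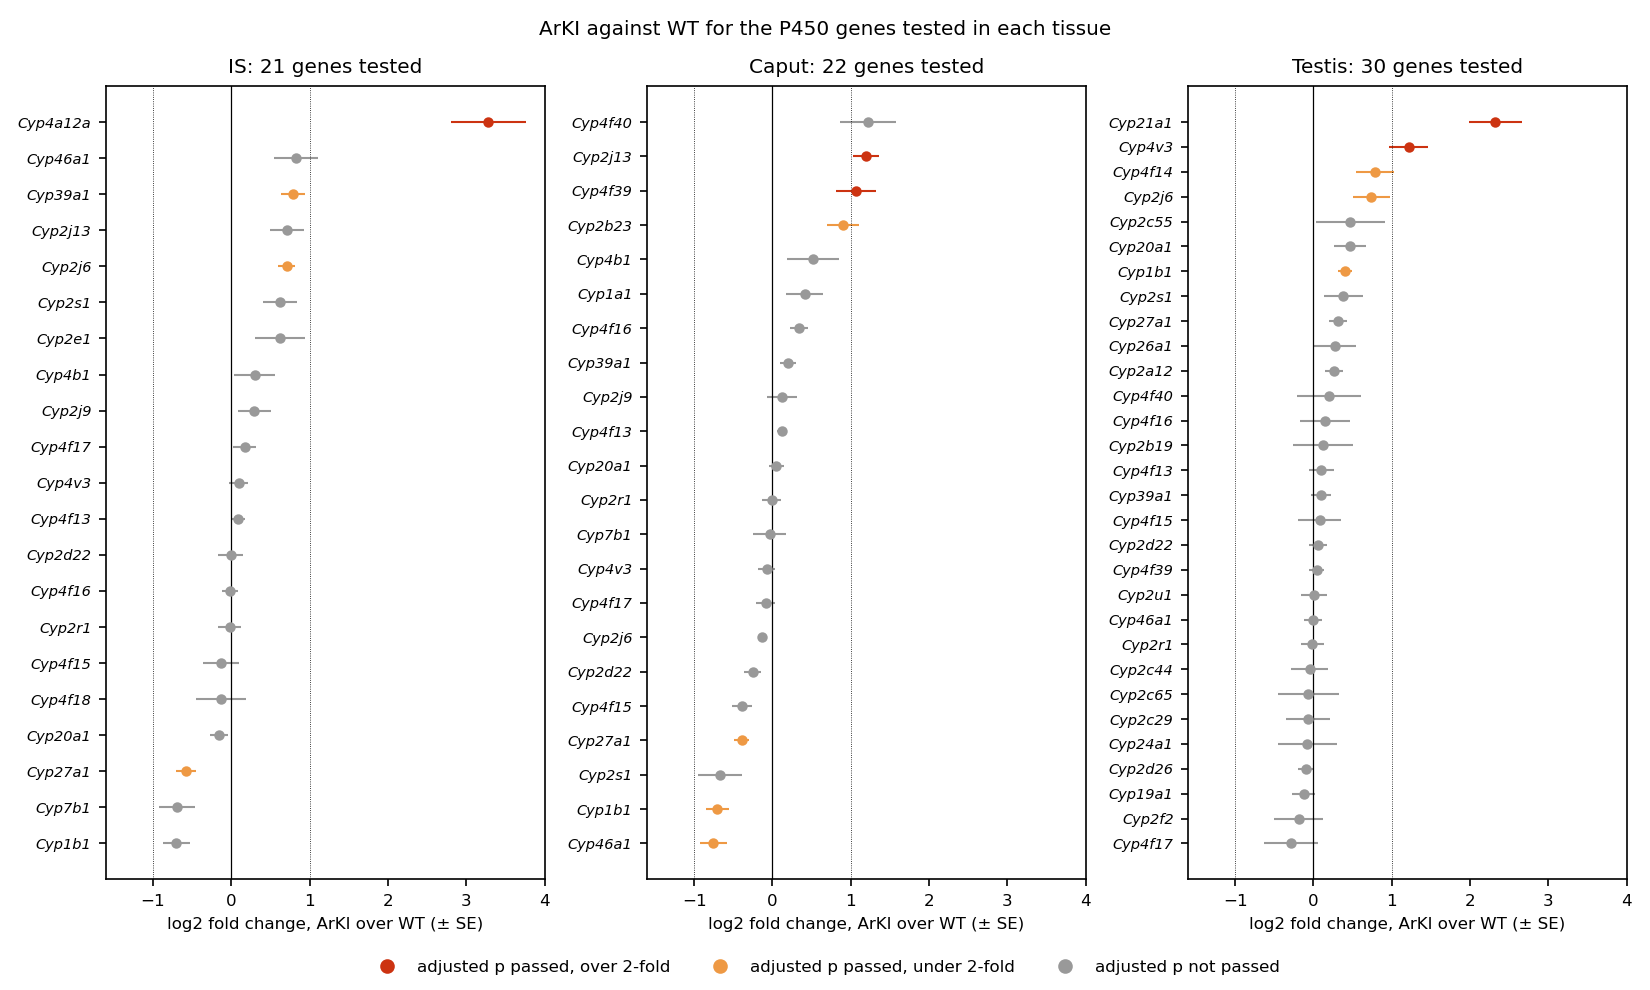
Log2 fold change of ArKI over WT (horizontal axis, bars are 1 SE) for every P450 gene tested in the IS, caput and testis. Red genes passed the adjusted p and a 2-fold change, orange genes the adjusted p alone (0.01 in the IS and caput, 0.2 in the testis), and dotted lines mark 2-fold. Most of the 21, 22 and 30 genes lie within 2-fold of 0, with *Cyp4a12a* (3.28) and *Cyp21a1* (2.32) farthest out.

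Whether the ArKI effect differed between the segments was tested as an interaction. Of 25 members 2 had an adjusted p below 0.01, *Cyp2j6* and *Cyp46a1*, against 8.18% of all genes (3.95% with a higher and 4.23% with a lower effect in the caput). *Cyp2j6* rose in the ArKI IS, and in the caput it had 41.9, 43.2, 44.7, 46.5 and 41.7 CPM in WT and 39.5, 37.6, 40.0, 42.0 and 38.7 CPM in ArKI (-0.14, SE 0.06, adjusted p = 0.079). The effect was lower in the caput by 0.84 on the log2 scale (SE 0.11, adjusted p = 9.4e-06). For *Cyp46a1*, 1.00 to 2.55 CPM in the WT IS and 2.02 to 4.23 CPM in the ArKI IS stood against the fall in the caput, and the effects differed by 1.58 (SE 0.33, adjusted p = 0.0013). Both held without any 1 library, and with the replicate number as a block within genotype (adjusted p = 0.00019 and 0.0021). The estimate of *Cyp2s1* was next (-1.29, SE 0.36, adjusted p = 0.015). *Cyp4a12a* and *Cyp2j13*, called in 1 segment each, had interaction estimates of 2.97 (SE 2.48, adjusted p = 0.49) and 0.49 (SE 0.29, adjusted p = 0.29), so a difference between segments was not shown for them.

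*Cyp2j6* and *Cyp2j13* lie on the minus strand of chromosome 4, at chr4:96516138-96553661 and chr4:96027534-96077546 in GENCODE vM21. The first passed the adjusted p in the ArKI IS and the second in the ArKI caput. *Cyp2j13* also rose by estimate in the IS, short of the threshold, and a difference between segments was not shown for it.

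In the testis 5 members rose and 0 of 30 fell, at an adjusted p below 0.2, the looser threshold used for this tissue. At an unadjusted p below 0.05 in edgeR 8 rose and 0 fell, where 7.10% of all genes rose and 5.95% fell. Past 2-fold DESeq2 and limma-voom also called 0 falls, where 0.0568% and 0.0884% of all genes fell, so that 0 of 30 says nothing particular to the members. *Cyp21a1* and *Cyp4v3* also exceeded 2-fold, 2 of 30 members tested, where 0.833% of all genes passed (0.751% rose and 0.0821% fell). By adjusted p alone the other 3 were *Cyp1b1*, *Cyp2j6* and *Cyp4f14*, making 16.7% of the members against 5.34% of all genes. Of these *Cyp2j6* and *Cyp4f14* were not past the threshold in DESeq2 (adjusted p = 0.44 and 0.43). Among all genes rises were also more frequent than falls, at 3.55% and 1.79%. The median log2 fold change of the 30 was 0.10 and that of all genes 0.00. Summed levels were 167 ± 2.38 CPM in WT and 193 ± 8.28 CPM in ArKI (SD, n = 3).

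*Cyp21a1*, whose enzyme makes the precursors of corticosterone and aldosterone, had 62, 53 and 23 counts in the WT testis and 334, 272 and 226 in the ArKI testis. In CPM these were 3.72, 3.81 and 1.64 against 20.9, 12.8 and 13.1. The groups were far apart, and the log2 fold change was 2.32 (SE 0.33, adjusted p = 0.023). Without 1 library at a time the log2 fold change ranged from 2.04 to 2.5 and the adjusted p stayed at or below 0.11. In the epididymis *Cyp21a1* had at most 8 counts in a library. *Cyp21a1* shares 102 bases of exon with *Tnxa* on the opposite strand, in addition to the stretches in common with its pseudogene. Leydig cell markers did not pass the threshold, with sums of 241 to 333 CPM in WT and 254 to 268 CPM in ArKI.

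*Cyp4v3*, the mouse counterpart of the fatty acid hydroxylase CYP4V2, had 0.960, 1.01 and 1.14 CPM in the WT testis and 2.13, 2.87 and 2.14 CPM in the ArKI testis. There was no overlap, with a log2 fold change of 1.21 (SE 0.25, adjusted p = 0.0075). Its level in the IS was 9.65 ± 1.28 CPM in WT and 10.3 ± 1.04 CPM in ArKI (SD, n = 5, adjusted p = 0.62), and in the caput the adjusted p was 0.65. Its exons overlap 313 bases of *Gm45753*, a gene annotated on the same strand, so its counts are uncertain to that extent.

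*Cyp1b1* had 16.2, 16.9 and 16.4 CPM in the WT testis and 21.2, 21.8 and 22.3 CPM in the ArKI testis, a small rise without overlap (0.40, SE 0.09, adjusted p = 0.015). In the epididymis its estimate was -0.70 in both segments. *Cyp2j6* rose from 1.44, 1.08 and 1.5 CPM to 2.07, 2.40 and 2.25 CPM (0.74, SE 0.23, adjusted p = 0.12), and *Cyp4f14* from 1.26, 1.08 and 1.21 CPM to 2.26, 1.79 and 2.14 CPM (0.78, SE 0.24, adjusted p = 0.12). Neither overlapped, but both rest on 15 to 51 counts a library. *Cyp2j6* lost the threshold without WT replicate 2 or 3 or ArKI replicate 2 (adjusted p up to 0.33), and *Cyp4f14* without WT replicate 3 or ArKI replicate 1 or 3 (up to 0.32). *Cyp2d26* and *Cyp46a1*, high in this tissue, had estimates of -0.10 and -0.01 with adjusted p-values of 0.71 and 0.99, and *Cyp19a1* one of -0.13 (SE 0.14, adjusted p = 0.77).

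Other markers moved in the ArKI testis too. *Lyz2*, a macrophage lysozyme, rose by 0.53 (SE 0.11, adjusted p = 0.011), as did 2 of 4 fibroblast markers and 1 of 4 smooth muscle markers. Summed leukocyte markers were 35.2 to 40.0 CPM in WT and 43.6 to 48.1 CPM in ArKI, and summed fibroblast markers 103 to 116 CPM and 135 to 143 CPM. The part of these cells in the P450 changes was not tested. Sertoli cell and sperm markers had no member past the threshold. Of the 4 caput epithelium markers 1 fell in the testis, with sums of 57.1 to 61.7 CPM in WT and 36.3 to 44.7 CPM in ArKI.

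**Figure D4:**
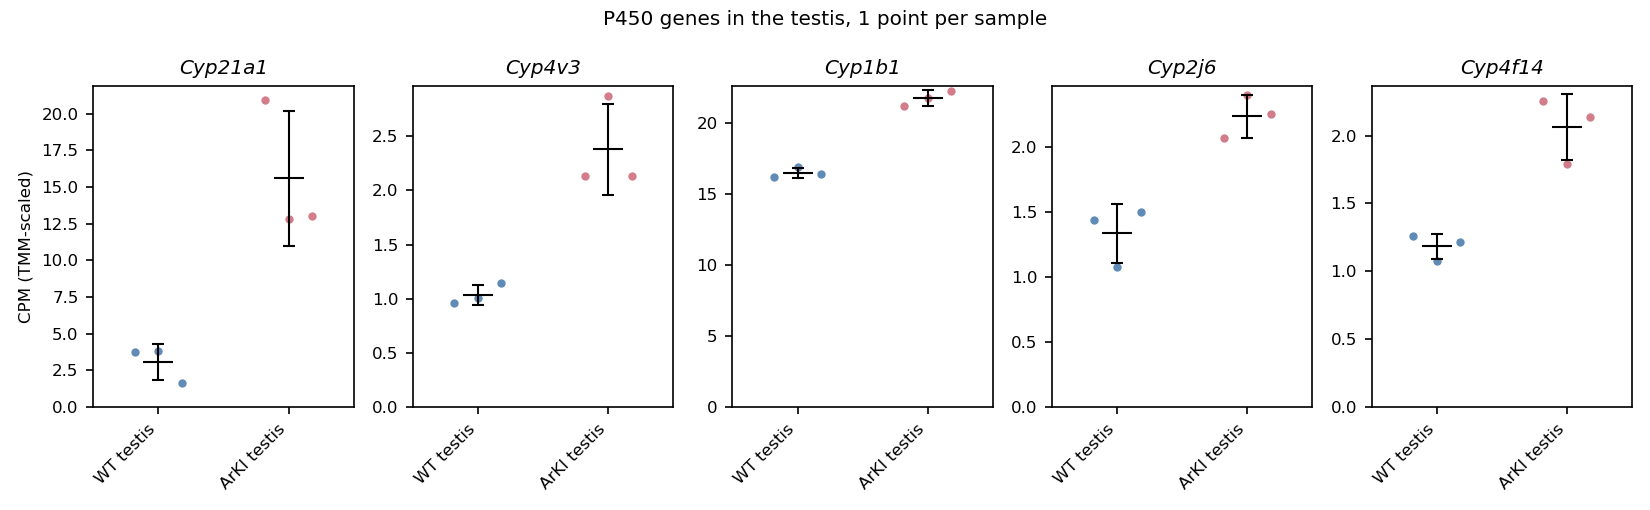
CPM of the 5 P450 genes that passed the adjusted p in the testis (vertical axis, linear from 0, TMM-scaled), 1 point per sample, with the mean and SD of 3 samples in black. In each panel the 3 ArKI samples lie above the 3 WT samples, from 12.8 to 20.9 against 1.64 to 3.81 CPM for *Cyp21a1* and from 21.2 to 22.3 against 16.2 to 16.9 CPM for *Cyp1b1*.

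Genes that work with P450 enzymes passed the adjusted p in 20.8% of those tested in the IS, 8% in the caput and 8.33% in the testis, where 18.8%, 18% and 5.34% of all genes did. Of 32 listed electron donors, haem synthesis enzymes, receptors and epoxide hydrolases, 31 are in the tables. In the IS 24 were tested, of which 2 rose and 3 fell. *Ppara*, the fatty acid receptor that controls *Cyp4a* genes in liver, was the only one beyond 2-fold. It had 34.8, 39.6, 34.7, 33.1 and 28.4 CPM in the WT IS and 12.2, 14, 20.5, 19 and 16.7 CPM in the ArKI IS. All ArKI libraries were lower, by 1.06 on the log2 scale (SE 0.12, adjusted p = 8.7e-06). *Ahr*, the dioxin receptor that controls *Cyp1* genes, rose by 0.37 (SE 0.10, adjusted p = 0.0062) and *Cyb5r3*, a reductase for cytochrome b5, by 0.34 (SE 0.05, adjusted p = 1.9e-05). *Cyb5b* and *Nr3c1* fell, by 0.16 and 0.24.

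In the caput 25 of the partner genes were tested. *Cyb5r3* rose there too, by 0.31 (SE 0.06), and *Urod*, of haem synthesis, fell by 0.42 (SE 0.10, adjusted p = 0.0059). *Por*, the common electron donor of the microsomal P450 enzymes, did not pass the threshold in any tissue, with log2 estimates of -0.01 in the IS, 0.22 in the caput (adjusted p = 0.024) and 0.16 in the testis. Of 24 tested in the testis 2 rose. *Ephx1*, the microsomal epoxide hydrolase that opens epoxides made by P450 enzymes, had 99.8, 99.6 and 107 CPM in WT and 196, 179 and 188 CPM in ArKI. It rose by 0.88 (SE 0.06, adjusted p = 5.5e-09), without overlap, and its estimate was 0.18 in the IS and -0.09 in the caput, with adjusted p-values of 0.27 and 0.21. *Fdxr*, the mitochondrial ferredoxin reductase, rose by 0.27 (SE 0.09, adjusted p = 0.17).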

How the data were processed

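RNA was sequenced as 50-base single-end reads from 26 samples. Per the labels the authors used bcl2fastq 1.8.4 and Subread 1.5.1 and mm10, and per the study's methods they aligned with STAR and counted uniquely mapped reads on RefSeq genes. The deposited values are raw counts per gene, not normalized. The labels and the methods name different library kits, and strand use in counting is not given in the sources used here.

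Counts were tested in R 4.3.3 with edgeR 4.0.16 (quasi-likelihood, robust) after filterByExpr (minimum count 10, minimum total count 15) and TMM scaling. P-values were adjusted by Benjamini-Hochberg over all genes tested. Thresholds followed the methods, an adjusted p below 0.01 (testis 0.2) and a fold above 2. The ROTS test of the study was not run here. SE is the log2 fold change over the root of F. Each tissue was fitted alone, the interaction in the 20 epididymal samples and the tissues in the 13 WT samples. GENCODE vM21 transcripts came from the reference. The gene that carries the knock-in allele is not reported here. Figures used matplotlib.

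Named with values were members past a threshold or with an interaction, the 5 highest WT members per tissue per kb, and, by their counts, members left out by the filter that reach 10 counts in a library. *Ppara*, *Ephx1* and others outside this rule, and the neighbours just short of a threshold, were picked after their values were seen. The members and lists were chosen with earlier results of these data known. The highest correlation of log2 CPM between any 2 libraries was 0.998, and none were identical. No source says that replicates are separate litters, so p-values measure the spread between these samples. Same-numbered samples correlated at -0.19 to 0.21 in their deviations, so numbers were not taken as pairs, although IS and caput came from the same mice per the study's methods. The depth per sample was 4125768 to 21376604 counts, and 3 counts, taken as the smallest signal, are at most 0.692 CPM. Alternatives were DESeq2, limma-voom, RLE and library size scaling, other filters and thresholds, the replicate block, a joint fit and leaving out each library.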

Additional observations from a re-analysis of the deposited data

Results flagged for a closer look

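Values of 18 members were examined in 61 groups of 5 libraries for a sample far from the rest, as the gap to the nearest sample over the range of the group, with 0.71 as the critical value. Chance flags about 1 group in 20, but the 18 members were picked by hand, so the flags are not read against that rate. The gap passed the critical value in 5 groups. In 3 of them the sample was ArKI caput replicate 2, with a ratio of 0.738 for *Cyp4a12a* (54 counts, 12.5 CPM), 0.811 for *Cyp2b10* (20 counts, 4.61 CPM) and 0.867 for *Cyp2j13* (82 counts, 18.9 CPM). This library also had the lowest depth and, among caput libraries, the highest fibroblast, smooth muscle and leukocyte marker sums, whose part was not tested. In the WT caput, replicate 5 stood apart for *Cyp2e1*, an ethanol-oxidizing enzyme (0.915, 47 counts against 0 to 4 in the other WT libraries), and the same library had fat cell markers at 7.11 CPM in sum against 0.365 to 1.08 CPM, with 23 counts of *Adipoq*. The part of fat cells was not tested. Replicate 1 stood apart for *Cyp7b1*, the oxysterol 7α-hydroxylase (0.917, 44 counts, 4.50 CPM).

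The effect of the genotype differed between the segments by a test of the difference for *Cyp2j6* (-0.84, caput minus IS, on the log2 scale) and *Cyp46a1* (-1.58).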

How the results depend on the processing

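Of 122 recomputed counts of members passing the thresholds, 102 stayed within 1.5 times the reported one. With every gene of at least 1 count tested, the count was 2 of 56 in the IS (*Cyp2b10* joins), 12 of 54 between the WT segments and 34 of 71 for the WT testis, against 3.90%, 18.8% and 54.7% of all genes. Where every sample had to reach 10 counts it was 0 of 16 in the IS, 1 of 18 in the caput, 1 of 14 for the interaction, 3 of 16 between the WT segments and 7 of 12 for the WT testis, since fewer members are tested (2.81%, 2.51%, 8.21%, 15.5% and 51.7% of all genes). With no fold limit it was 4 of 21 in the IS, 6 of 22 in the caput and 5 of 30 in the testis (18.8%, 18% and 5.34% of all genes). Both segments in one fit gave 0 of 25 in the IS and 4 of 25 in the caput (*Cyp2j13*, *Cyp4f39*, *Cyp4a12a* and *Cyp4f40*), against 4.88% and 5.32% of all genes, and the cause was not tested. In that fit *Cyp4a12a* passed the filter on low counts through ArKI libraries only, so the caput count is not read against the background. At an adjusted p below 0.05 the interaction had 4 of 25 members, near the 15.1% of all genes. Leaving out 1 library gave 1 in the IS (*Cyp4a12a*, tested only because its ArKI libraries passed the filter, so that this says nothing of stability), 1 to 3 in the caput, 2 in the testis, 2 to 3 for the interaction, 7 to 8 between the WT segments and 21 to 22 for the WT testis.

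With the replicate block the caput count was 1, as *Cyp4f39* reached an adjusted p of 0.013. The block left 1 in the IS, 2 in the testis, 2 for the interaction, 6 between the WT segments and 21 for the WT testis. IS and caput come from the same mice, but whether equal numbers mark 1 mouse is not given. Correlations of same-numbered samples were -0.19 to 0.21 and not above 0.1 in every pair of any comparison.

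Of 313 recomputed fold changes of single members, 279 kept their side of the threshold and 34 lost it, and no direction turned. Those lost outside leave-one-out were *Cyp4a12a* in the IS in the joint fit, *Cyp27a1* in the caput with library size scaling (0.018), *Cyp4f39* with the block, and *Cyp2j6* and *Cyp4f14* in the testis with DESeq2 (0.44 and 0.43) and at 0.05. Of 20 refits of *Cyp4a12a* and *Cyp2b10* in the caput, leaving out 1 library, chosen after seeing the data, 8 lost the threshold and 1 reached it. The adjusted p ranged from 0.0060 to 0.22 for *Cyp4a12a* and from 0.00045 to 0.025 for *Cyp2b10*. Of the 93 members 52 had at most 9 counts in every library and were not tested. Among these an exact interval of the ratio, higher over lower group, was computed only under a rule. The rule was at most 3 counts in every library of 1 genotype and more in some library of the other. It picks genes by their difference, so the intervals are no test of it. They were 1.18 to 6.25 for *Cyp2j11* in the IS (27 counts in WT, 9 in ArKI, ratio 2.59) and 1.24 to 412 for *Cyp4a31* in the IS (1 and 8, ratio 9.27). For *Cyp4a14* in the testis the interval was 1.11 to 15.6 (12 and 4, ratio 3.67). The intervals cover counting error only and not the spread between mice. With 3 counts in each library of the lower group the ratios would be 1.52, 0.587 and 1.59, in this order.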
